A study of Drosophila melanogaster with 4 samples.

Results

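Tweedle, Cpr and Lcp genes encode structural proteins of the insect cuticle, and their transcripts were measured in *Drosophila melanogaster* embryos with ectopic expression of the microRNA mir-3 and in w1118 embryos. The members were all genes on the array whose symbol, reached through the CG number that names a probe's transcript, starts with Twdl, with Cpr and a digit, or with Lcp, together with *Tb*, a Tweedle gene that keeps the name of its mutant. They were 109 genes with 128 probes, of 25082 genes and unnamed transcripts with 32162 probes on the array. By family they were 25 Tweedle, 69 Cpr and 15 Lcp genes. Of these, 57 were bright enough to be tested, among 14852 tested in all. RefSeq's gene table holds 114 such symbols. Of the other 5, *TwdlJ* was named only by an accession on a probe above background on 0 of 4 arrays, and *TwdlU*, *Cpr65Ax2*, *Lcp65APsi* and *Lcp1Psi* were not analysed here.

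The mir-3 ectopic embryos were homozygous for the ectopic expression in the w1118 genetic background, and the embryos set against them were w1118 with no such change. Both were whole embryos from 2 h collections kept at 25 °C, taken 6 to 8 h after egg laying. RNA of both genotypes was hybridized together on each two-colour Agilent array, in 3 separately isolated biological replicates, with a dye swap of replicate 1 as the fourth array. The sources used here do not state the transgene or driver, and mir-3 itself was not measured by any probe kept for testing.

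The insect cuticle is a layered extracellular matrix that epidermal cells secrete, built of chitin fibres and of proteins that bind them. Cpr genes are named for a cuticular protein with the Rebers and Riddiford consensus, a stretch that binds chitin. Lcp genes, the larval cuticle protein genes, encode proteins with the same consensus, first known from extracts of larval cuticle. Tweedle proteins form a separate insect family that also binds chitin, and dominant mutations in its members, Tubby (*Tb*) among them, make larvae and pupae short and stout. Many of these genes lie in tandem clusters. In the embryo the larval cuticle is laid down late, after germ band retraction, so the ages sampled here come before it.

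Per array, 57.6% to 64.7% of spots read well above background for mir-3 ectopic RNA and 59.1% to 66.1% for w1118 RNA. No spot was saturated, and precision is limited by how few arrays there are. Levels are given below as normalized log2 signal after background correction with an offset of 50 units. The offset sets a floor, and the 39 member probes that were above background on 0 arrays in both genotypes had a median of 6.18 in mir-3 ectopic embryos and 6.19 in w1118 embryos. Levels compare the genotypes for a probe and do not rank genes. Differences are log2 ratios of mir-3 ectopic over w1118, by the labelled dyes. That is the opposite direction to the authors' deposited value table, which runs w1118 over mir-3 ectopic. In whole embryos, fewer cells that make a transcript and less of it per cell cannot be told apart.

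Cuticle protein transcripts were mostly lower in mir-3 ectopic embryos. Of the 57 members tested, 39 fell, 2 rose and 16 did not pass (limma, Benjamini-Hochberg over all genes tested, threshold 0.05). The fall was at least 2-fold for 24 members. Over all genes tested, 24.5% were called lower, 24.3% were called higher and 1.12% were called at least 2-fold lower. The median log2 ratio of the members tested was -0.65, against -0.0018 over all genes tested. In the replicates the members' median was -0.68, -0.69 and -0.67. The value of replicate 1 averages its 2 arrays, at -0.86 on the dye swap and -0.50 on the other, so the median was below 0 in both dye orientations but differed in size. In 40 of the 57 members tested the 3 mir-3 ectopic values all lay below the 3 w1118 values, as they did for 21.6% of all genes tested. That count is split by detection below. Of the 39 that fell, 38 had the same sign on 4 of 4 arrays and 38 did not overlap. The exception to both counts was *Cpr49Ag*, whose dye-swap ratio was 0.08.

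The families differed in how far they moved, a difference that was not itself tested. Of 16 Tweedle genes tested, 14 fell, with a family median of -1.52 and a range from -3.71 to -0.03. Of 34 Cpr genes tested, 20 fell and 2 rose, with a median of -0.32 and a range from -3.01 to 0.26. Of 7 Lcp genes tested, 5 fell, with a median of -0.38 and a range from -3.09 to -0.02. The order of the families depended on detection, since the 3 Lcp genes detected in both genotypes had a median of -1.55. The falls of at least 2-fold were divided as 10 Tweedle, 11 Cpr and 3 Lcp genes.

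**Figure D1:**
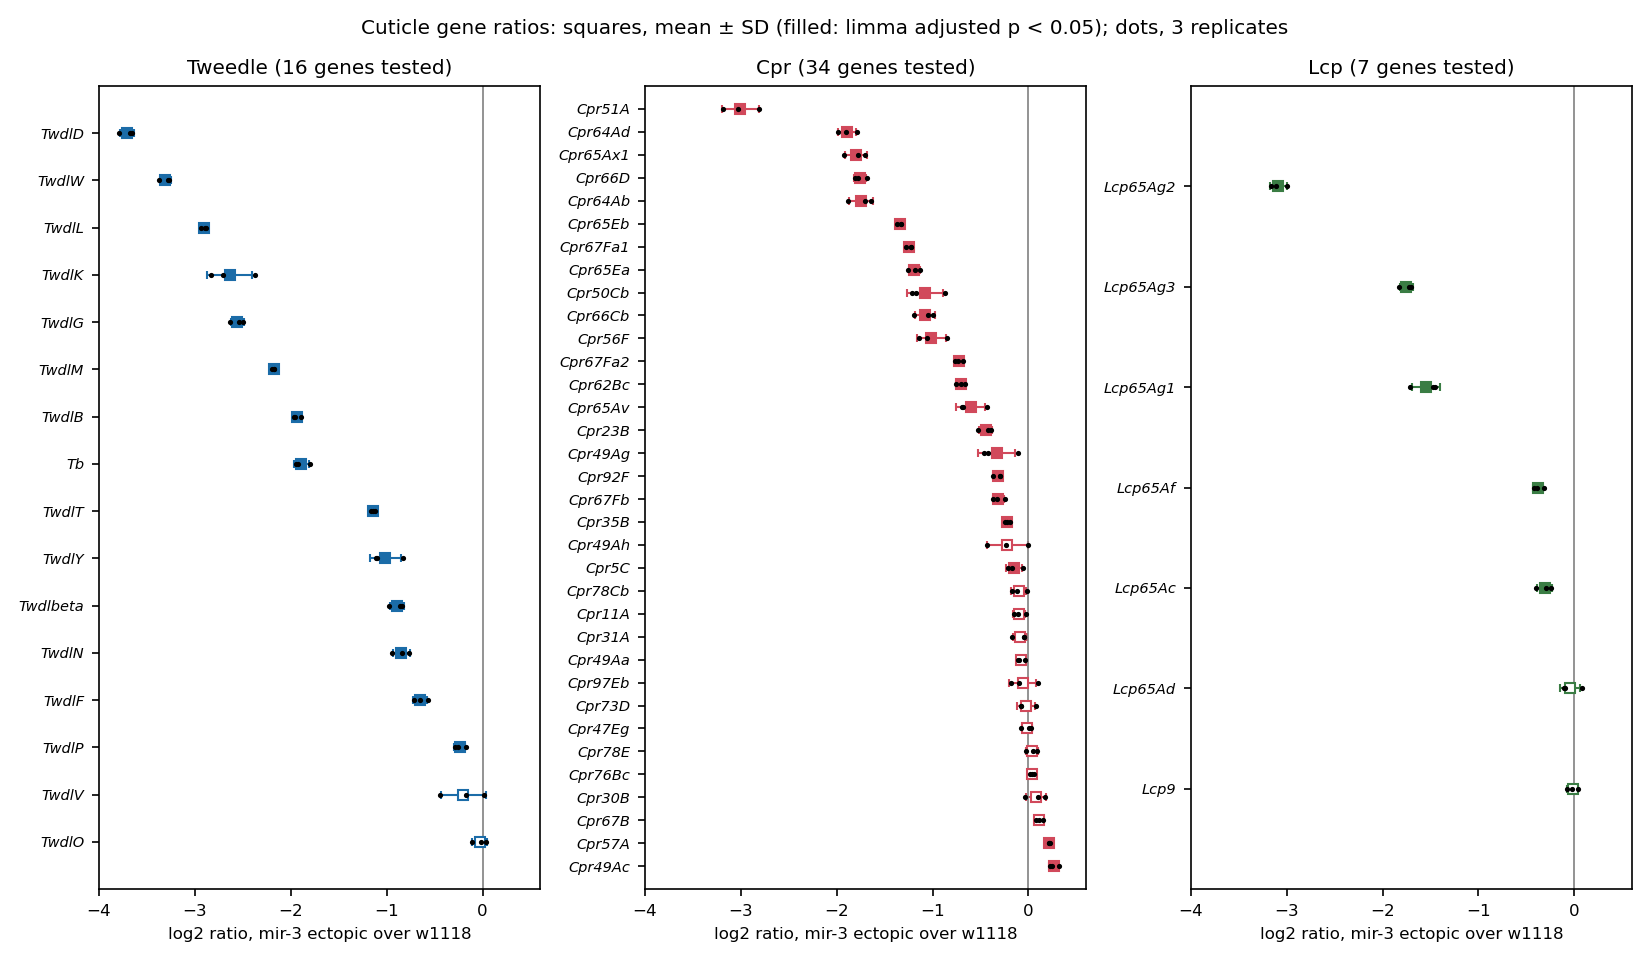
Log2 ratios (x axis, mir-3 ectopic over w1118) of the 57 cuticle genes tested, one row a gene, in panels for the Tweedle, Cpr and Lcp families. Squares are means and bars SD of the 3 replicates shown as dots, filled squares passed limma's adjusted p threshold of 0.05, and the Tweedle panel reaches furthest left, to *TwdlD* at -3.71, with 2 filled squares right of 0, *Cpr57A* and *Cpr49Ac*.

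Tweedle genes held the furthest fall of all members. *TwdlD* (CG14243), a gene known from a dominant mutation that shortens the body, read 6.44, 6.65 and 6.52 in mir-3 ectopic replicates 1, 2 and 3, against 10.09, 10.32 and 10.31 in the w1118 replicates. The genotypes lay far apart, with the mir-3 ectopic values near the floor though above background on 3 of 4 arrays. Its ratio was -3.71 ± 0.07 (SD, n = 3), or 13.1-fold lower, with a limma adjusted p of 5.48e-08. On the single arrays the *TwdlD* ratio was -3.50 for replicate 1, -3.81 for its dye swap, -3.67 for replicate 2 and -3.79 for replicate 3.

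*TwdlW* (CG4060) read 6.27, 6.56 and 6.38 in mir-3 ectopic embryos, against 9.64, 9.84 and 9.65 in w1118 embryos, a ratio of -3.31 ± 0.06 (SD, n = 3). *TwdlL* (CG6447) read 6.51, 6.61 and 6.44 in mir-3 ectopic embryos, against 9.40, 9.50 and 9.38 in w1118 embryos, a ratio of -2.90 ± 0.03 (SD, n = 3). As with *TwdlD*, every w1118 value of *TwdlW* and of *TwdlL* was well over 2 log2 units above every mir-3 ectopic value. *TwdlK* (CG6460) read 7.10, 7.10 and 6.82 in mir-3 ectopic embryos, against 9.48, 9.80 and 9.65 in w1118 embryos. Its ratio of -2.64 ± 0.24 (SD, n = 3) had the widest spread among the members that fell at least 2-fold, where SDs began at 0.012. *TwdlG* (CG14643) read 6.17, 6.45 and 6.36 in mir-3 ectopic embryos, against 8.80, 8.98 and 8.86 in w1118 embryos, a ratio of -2.56 ± 0.07 (SD, n = 3). In mir-3 ectopic embryos *TwdlG* was above background on 1 of 4 arrays, so its low values sit at the floor.

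*TwdlM* (CG5468) read 7.10, 7.29 and 7.05 in mir-3 ectopic embryos, against 9.28, 9.48 and 9.22 in w1118 embryos, a ratio of -2.18 ± 0.01 (SD, n = 3). That mean covers 3 probes for the same annotated transcript, at -3.15, -2.94 and -0.44. All 3 were called lower, and the last was above background on 0 arrays in mir-3 ectopic embryos and on 3 in w1118 embryos. *TwdlB* (CG6478) read 6.16, 6.36 and 6.25 in mir-3 ectopic embryos, where it was above background on 0 of 4 arrays, against 8.06, 8.31 and 8.21 in w1118 embryos. Because the mir-3 ectopic level is only bounded, *TwdlB* was at least 3.72-fold lower (adjusted p 2.96e-07). Such bounds set the w1118 mean against the mean of the lowest signal found well above background on each array, or of the dim probe's own signal where that was higher.

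*Tb* (CG5480), the gene of the Tubby mutation, read 6.20, 6.48 and 6.34 in mir-3 ectopic embryos, against 8.00, 8.42 and 8.26 in w1118 embryos. Its ratio was -1.89 ± 0.08 (SD, n = 3), and in mir-3 ectopic embryos it was above background on 1 of 4 arrays. *TwdlT* (CG5812) read 6.41, 6.65 and 6.59 in mir-3 ectopic embryos, against 7.54, 7.79 and 7.75 in w1118 embryos, a ratio of -1.14 ± 0.02 (SD, n = 3) over 2 probes that read -0.996 and -1.29. The genotypes were apart in every replicate of both genes. *TwdlY* (CG32570) read 6.34, 6.53 and 6.38 in mir-3 ectopic embryos, against 7.16, 7.63 and 7.49 in w1118 embryos, a ratio of -1.01 ± 0.16 (SD, n = 3) that reached 2-fold by a narrow margin. Over the 24 members past 2-fold in all families, the highest limma adjusted p was 3.85e-05.

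The other Tweedle genes moved less. *Twdlbeta* (-0.89), *TwdlN* (-0.85), *TwdlF* (-0.65) and *TwdlP* (-0.24) also fell, while *TwdlV* (-0.20, adjusted p 0.082) and *TwdlO* did not pass. *TwdlO* (CG6452) had the smallest ratio of the Tweedle genes detected in both genotypes. It read 7.09, 6.79 and 6.88 in mir-3 ectopic embryos, against 7.05, 6.90 and 6.89 in w1118 embryos. These ranges overlap, and the *TwdlO* ratio was -0.03 ± 0.08 (SD, n = 3, adjusted p 0.618). The 9 Tweedle genes too dim to test were *TwdlC*, *TwdlE*, *TwdlH*, *TwdlQ*, *TwdlR*, *TwdlS*, *TwdlX*, *TwdlZ* and *Twdlalpha*.

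**Figure D2:**
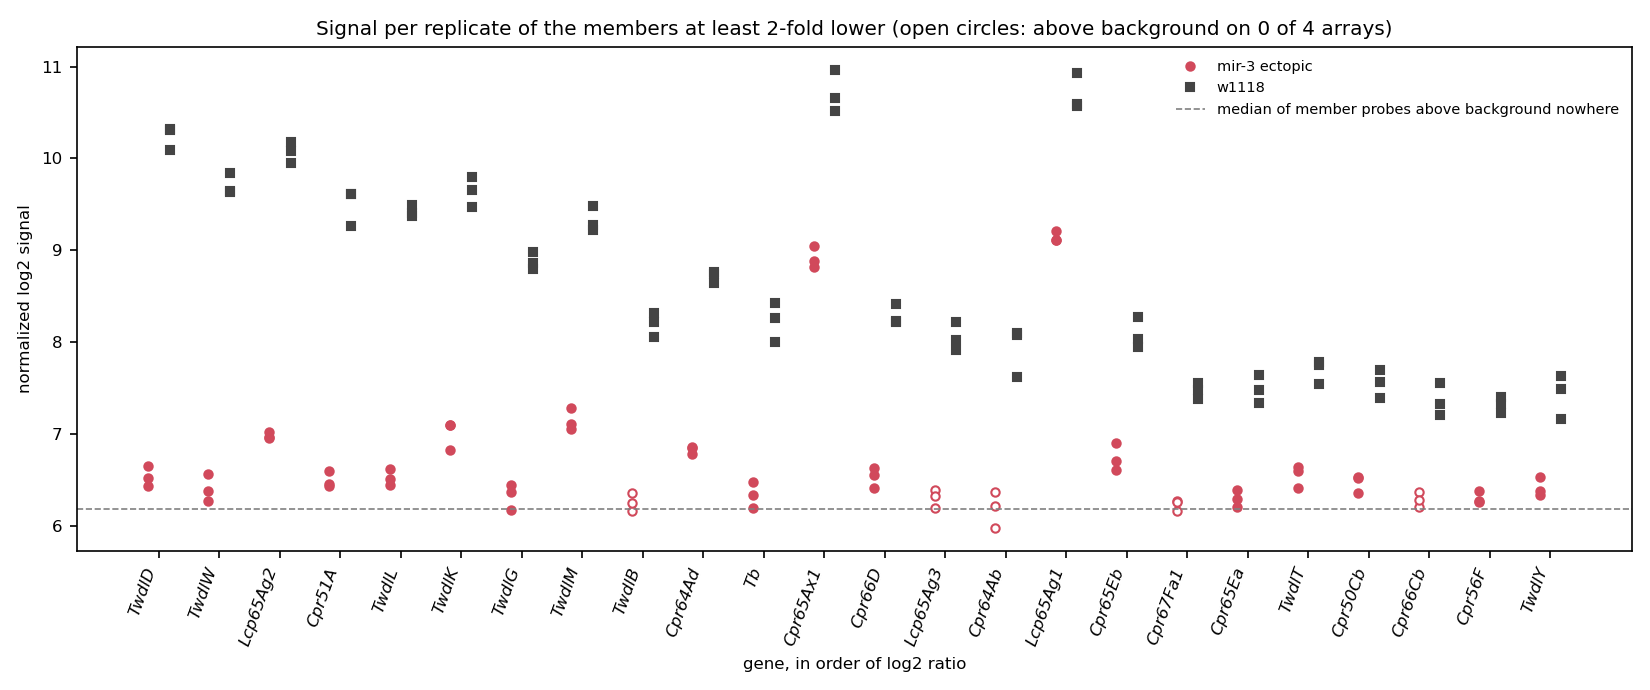
Normalized log2 signal (y axis) of the 24 members at least 2-fold lower, in order of ratio, with circles for the 3 mir-3 ectopic replicates left of squares for the 3 w1118 replicates. Open circles mark genes above background on 0 of 4 arrays in mir-3 ectopic embryos, and most circles crowd just above the dashed line at 6.18, the median of member probes above background nowhere, while the circles of *Cpr65Ax1* and *Lcp65Ag1* lie between 8.82 and 9.21.

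Lcp genes that could be tested lay at 65A on arm 3L, apart from *Lcp9*. *Lcp65Ag2* (CG10534) read 6.96, 7.02 and 6.97 in mir-3 ectopic embryos, against 9.95, 10.18 and 10.08 in w1118 embryos. Its ratio was -3.09 ± 0.09 (SD, n = 3), or 8.49-fold lower, and its 2 probes read -3.04 and -3.13. Both genotypes were above background on 4 of 4 arrays, so the low level was itself measured. *Lcp65Ag1* (CG10530) read 9.21, 9.12 and 9.11 in mir-3 ectopic embryos, against 10.93, 10.60 and 10.57 in w1118 embryos, a ratio of -1.55 ± 0.15 (SD, n = 3). *Lcp65Ag3* (CG18779) read 6.19, 6.39 and 6.32 in mir-3 ectopic embryos, where it was above background on 0 of 4 arrays, against 7.92, 8.22 and 8.02 in w1118 embryos, and was at least 3.27-fold lower (adjusted p 5.66e-07). In none of the 3 genes did the genotypes overlap. *Lcp65Ag1*, *Lcp65Ag2* and *Lcp65Ag3* are close copies of one another whose probes may share targets, so the value of each copy is uncertain.

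*Lcp65Af* (CG10533) had the smallest ratio of the Lcp genes detected in both genotypes. It read 6.41, 6.50 and 6.39 in mir-3 ectopic embryos, against 6.73, 6.89 and 6.81 in w1118 embryos, a ratio of -0.38 ± 0.05 (SD, n = 3, adjusted p 0.000506). The values did not overlap, though both stand close to the floor. *Lcp65Ac* fell by 0.31, with a bound of at least 1.21-fold lower, and *Lcp65Ad* (-0.04) and *Lcp9* (-0.02) did not pass. *Lcp1*, *Lcp2*, *Lcp3* and *Lcp4*, the genes of the main larval cuticle proteins, were too dim to test in either genotype, as were *Lcp65Aa*, *Lcp65Ab1*, *Lcp65Ab2* and *Lcp65Ae*.

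Cpr genes both fell and rose. *Cpr51A* (CG10112) read 6.46, 6.59 and 6.43 in mir-3 ectopic embryos, against 9.26, 9.61 and 9.62 in w1118 embryos, a ratio of -3.01 ± 0.19 (SD, n = 3), or 8.03-fold lower. It was the only Cpr gene past a ratio of -2 on this scale. *Cpr64Ad* (CG1259) read 6.84, 6.85 and 6.78 in mir-3 ectopic embryos, against 8.75, 8.65 and 8.77 in w1118 embryos, a ratio of -1.89 ± 0.10 (SD, n = 3). Its neighbour *Cpr64Ab* (CG15007) read 5.98, 6.37 and 6.22 in mir-3 ectopic embryos, above background on 0 of 4 arrays, against 7.62, 8.08 and 8.10 in w1118 embryos. *Cpr64Ab* was at least 3.14-fold lower (adjusted p 1.3e-06), and no value of either gene overlapped between the genotypes. Another *Cpr64Ab* probe for the same transcript, above background on 0 arrays in both genotypes, read -0.17 and was not kept. With no filter on dim probes the *Cpr64Ab* ratio was -0.96.

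*Cpr65Ax1* (CG34270) read 8.82, 9.04 and 8.88 in mir-3 ectopic embryos, against 10.52, 10.96 and 10.65 in w1118 embryos, a ratio of -1.80 ± 0.11 (SD, n = 3). It stood far above the floor in both genotypes, but *Cpr65Ax2* is a close copy that its probe may also read, so the value is uncertain. *Cpr66D* (CG32029) read 6.41, 6.63 and 6.55 in mir-3 ectopic embryos, against 8.22, 8.41 and 8.23 in w1118 embryos, a ratio of -1.76 ± 0.06 (SD, n = 3). *Cpr65Eb* (CG8638) read 6.61, 6.90 and 6.71 in mir-3 ectopic embryos, against 7.94, 8.27 and 8.03 in w1118 embryos, a ratio of -1.34 ± 0.03 (SD, n = 3). The genotypes were separate in both.

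*Cpr65Ea* (CG8640), next to *Cpr65Eb*, read 6.21, 6.39 and 6.29 in mir-3 ectopic embryos, against 7.34, 7.64 and 7.48 in w1118 embryos, a ratio of -1.19 ± 0.06 (SD, n = 3). In mir-3 ectopic embryos it was above background on 1 of 4 arrays. That mean joins 2 probes for the same transcript, at -1.43 and, short of 2-fold, at -0.95, and both were called lower. *Cpr67Fa1* (CG7941) read 6.16, 6.27 and 6.26 in mir-3 ectopic embryos, above background on 0 of 4 arrays, against 7.38, 7.55 and 7.48 in w1118 embryos, and was at least 2.29-fold lower. *Cpr67Fa2*, at least 1.60-fold lower, is its close copy, so both are uncertain. *Cpr66Cb* (CG7076) read 6.21, 6.37 and 6.28 in mir-3 ectopic embryos, above background on 0 of 4 arrays, against 7.20, 7.56 and 7.33 in w1118 embryos, and was at least 2.07-fold lower. Its 2 probes, for the same transcript, read -1.62 and -0.54, and both were called lower.

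*Cpr50Cb* (CG6305) read 6.52, 6.53 and 6.36 in mir-3 ectopic embryos, against 7.39, 7.70 and 7.57 in w1118 embryos, a ratio of -1.08 ± 0.19 (SD, n = 3). *Cpr56F* (CG9036) read 6.38, 6.27 and 6.26 in mir-3 ectopic embryos, above background on 1 of 4 arrays, against 7.23, 7.33 and 7.40 in w1118 embryos, a ratio of -1.01 ± 0.15 (SD, n = 3). Neither gene's genotypes overlapped, and both passed 2-fold by little.

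The 2 members that rose were both Cpr genes, and both changes were small. *Cpr49Ac* (CG8502) read 7.51, 7.46 and 7.57 in mir-3 ectopic embryos, against 7.26, 7.24 and 7.25 in w1118 embryos, a ratio of 0.26 ± 0.05 (SD, n = 3, adjusted p 0.00246), or 1.20-fold higher. *Cpr57A* (CG18066) read 7.47, 7.53 and 7.54 in mir-3 ectopic embryos, against 7.25, 7.32 and 7.33 in w1118 embryos, a ratio of 0.22 ± 0.0038 (SD, n = 3, adjusted p 0.00427). The genotypes did not overlap in either gene. The *Cpr57A* mean joins a probe at 0.36, which passed alone, and a dimmer one at 0.07, which did not (adjusted p 0.225).

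At the edge of the threshold, *Cpr5C* (CG4052) read 6.54, 6.52 and 6.45 in mir-3 ectopic embryos, against 6.60, 6.69 and 6.67 in w1118 embryos, and passed with a ratio of -0.15 ± 0.08 (SD, n = 3, adjusted p 0.0367). That call was lost without replicate 2 and without replicate 3. *Cpr49Ah* (CG8515) read 6.25, 6.21 and 6.12 in mir-3 ectopic embryos, against 6.25, 6.45 and 6.55 in w1118 embryos, and missed with a ratio of -0.22 ± 0.22 (SD, n = 3, adjusted p 0.050). Its values met in replicate 1 and lay apart in replicates 2 and 3. *Cpr49Ah* passed without replicate 1 (-0.33, adjusted p 0.00225), without the dye swap (-0.25, 0.00869) and with no background subtraction (-0.41, 0.0147), and its ratio was -0.12 without replicate 3. *Cpr47Eg* (CG9070), the Cpr gene detected in both genotypes with the smallest ratio, read 8.17, 8.12 and 8.10 in mir-3 ectopic embryos, against 8.14, 8.20 and 8.09 in w1118 embryos. Those values overlap, at a ratio of -0.02 ± 0.06 (SD, n = 3, adjusted p 0.794). That mean joins a probe at 0.03 named by the CG number and a brighter one at -0.06 matched by accession.

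Below 2-fold, 15 members of all families fell, with ratios from -0.89 to -0.15 and SDs between 0.026 and 0.19. The Cpr genes among them were *Cpr67Fa2*, *Cpr62Bc*, *Cpr65Av*, *Cpr23B*, *Cpr49Ag*, *Cpr92F*, *Cpr67Fb*, *Cpr35B* and *Cpr5C*. The 16 members that did not pass had ratios from -0.22 to 0.11. In *Cpr11A*, one of those 16, the brighter of 2 probes passed as lower alone (-0.18, adjusted p 0.0197) and the dimmer one did not (-0.01). No member had probes called in opposite directions, and 12 members had more than 1 kept probe.

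Dim and well detected members were then taken apart, since a filter passed through one genotype alone favours genes that are higher there. Well detected here means above background on at least 3 of 4 arrays in a genotype. That held for 40 of 109 members (36.7%) in mir-3 ectopic embryos and for 54 (49.5%) in w1118 embryos. Over everything on the array it held for 57.6% in mir-3 ectopic embryos and 56.5% in w1118 embryos.

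Among the 37 members detected in both genotypes, 25 fell, 15 of them at least 2-fold, and 2 rose, with a median of -0.65. Of all 13750 genes in that class, 24.5% were called lower, 25.2% were called higher and 0.96% were called at least 2-fold lower, with a median of -0.0035. By family, 11 of 13 Tweedle, 11 of 21 Cpr and 3 of 3 Lcp genes in that class fell. The family medians there were -1.01, -0.15 and -1.55. All 3 mir-3 ectopic values lay below all 3 w1118 values in 26 of the 37 members and in 2936 of the 13750 genes. The 17 members detected in w1118 embryos alone included 14 that fell, 9 of them at least 2-fold. Of all 415 genes in that class, 64.8% were called lower and 8.43% were called at least 2-fold lower. There the mir-3 ectopic values all lay below the w1118 values in 14 of the 17 members and in 260 of the 415 genes. The 3 members detected in mir-3 ectopic embryos alone, *Cpr30B*, *Cpr76Bc* and *Lcp9*, had ratios between -0.02 and 0.08 and none passed, where 21.5% of all genes of that class were called higher.

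The other 52 members were detected in neither genotype, and their ratios, from -0.25 to 0.11, were not tested. With no filter on dim probes, 5 of them were called lower, namely *Cpr65Au*, *Cpr65Ec*, *Cpr97Ea*, *Lcp65Ab1* and *TwdlX*. Of the 39 members that fell, 14 were above background on 4 of 4 arrays in mir-3 ectopic embryos, 11 on 3, 4 on 1 array and 10 on none. For those 10, the bounds ran from at least 1.21-fold to at least 3.72-fold lower.

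How deep the dim members appeared to fall depended on how the signals were processed. An offset added to both channels pulls the ratio of a dim spot toward 0, and the processed signals of the scanner software were used without one. Those signals were also taken without the loess step, so the parts of background and normalization were not separated. With loess kept and no background subtraction, the members' median ratio was -0.97. With the processed signals the members' median ratio was -2.28, and -1.51 over the 37 detected in both genotypes. Of the 25 that fell in that class, 20 were then at least 2-fold lower, against 15 with the offset. For *TwdlD*, above background on 3 of 4 arrays in mir-3 ectopic embryos, the ratio was then -5.94. For members above background on no mir-3 ectopic array, the bounds given above stand in place of such ratios. Members far above the floor moved less, with *Lcp65Ag1* at -1.77 and *Cpr65Ax1* at -2.12. None of the 39 members that fell changed sign between the treatments, and 41 members were called lower with the processed signals.

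**Figure D3:**
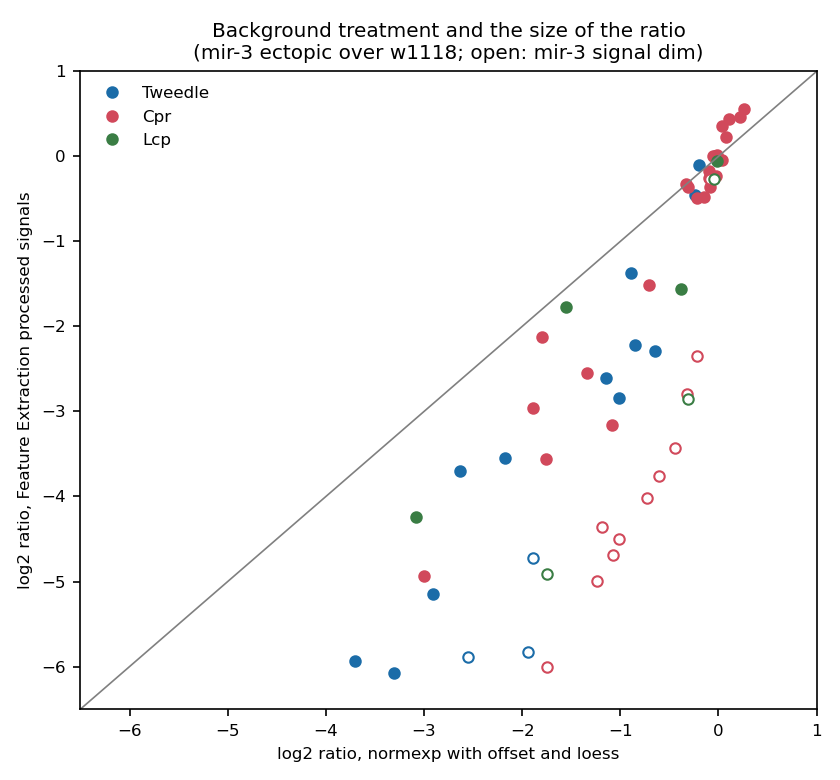
Log2 ratio (mir-3 ectopic over w1118) of each of the 57 members tested after normexp with an offset and loess (x axis), set against that from the scanner software's processed signals (y axis), with the line of equality. Points well below the line are members with a low mir-3 ectopic signal, among them filled points such as *TwdlD* at -3.71 and -5.94. Points are open where the mir-3 ectopic signal was above background on fewer than 3 of 4 arrays, so that the ratio is poorly measured. *Lcp65Ag1*, at -1.55 and -1.77, lies near the line.

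Genomic clusters were read from gene order in RefSeq's table, with members chained where at most 10 other genes lay between them and at least 3 members to a cluster. This gave 15 clusters with 82 members, of which 38 were tested and 28 fell, with 1 that rose and a median of -0.79. Outside clusters, 19 of 27 members were tested, and 11 fell and 1 rose, with a median of -0.22. Over all genes tested, 24.5% were called lower and 24.3% higher. Counts by cluster and by arm pool the detection classes. Of all genes, 24.5% were called lower where detected in both genotypes and 64.8% where detected in w1118 embryos alone. Falls were found in 10 of the 15 clusters, and 2 clusters had 0 members bright enough to test.

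The largest Tweedle cluster, from *TwdlM* to *TwdlQ* on arm 3R, held 13 members, of which 9 were tested and 8 fell, with a median of -1.94. Of the 8, *TwdlB* and *Tb* were detected in w1118 embryos alone. Its ratios ran along the order from *TwdlM* at -2.18 and *TwdlP* at -0.24 to *TwdlD* at -3.71 and *Tb* at -1.89. *TwdlO*, at -0.03, sits between *TwdlL* at -2.90 and *TwdlK* at -2.64, so genes next to each other differed widely. On the same arm, 2 of 3 tested members from *TwdlU* to *TwdlV* fell, of which *TwdlG* was detected in w1118 embryos alone.

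The 65A cluster on arm 3L, where Lcp and Cpr genes are interleaved, held 16 members, of which 8 were tested and 7 fell, with a median of -1.08. There *Lcp65Ag2* (-3.09), *Lcp65Ag1* (-1.55) and *Cpr65Ax1* (-1.80) fell far, and *Lcp65Ad* (-0.04) did not pass. Elsewhere on 3L every tested member fell at 64A (2 of 2), 65E (2 of 2), 67F (3 of 3) and 62B (1 of 1). Among these, *Cpr64Ab*, *Cpr65Ea*, *Cpr67Fa1* and *Cpr67Fa2* were detected in w1118 embryos alone, as were *Cpr65Av*, *Lcp65Ac*, *Lcp65Ad* and *Lcp65Ag3* at 65A. In that class 64.8% of all genes were called lower, against 24.5% of genes detected in both genotypes. *Cpr76Bc* and *Cpr78Cb*, each the 1 member of its cluster bright enough to test, did not pass.

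Few cluster members on arm 2R were bright enough to test. Of 8 members at 49A, 4 were tested, of which *Cpr49Ag* fell (-0.33), *Cpr49Ac* rose (0.26) and the other pair, *Cpr49Aa* and *Cpr49Ah*, did not pass. At 47E only *Cpr47Eg* of 7 members was tested, and *Lcp1* to *Lcp4* were all too dim. By arm, 17 of 23 tested members fell on 3L, 13 of 16 on 3R, 5 of 11 on 2R, 2 of 4 on 2L and 2 of 3 on X. Over all genes tested, 24.5% were called lower. None of these differences between clusters or arms was itself tested.

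**Figure D4:**
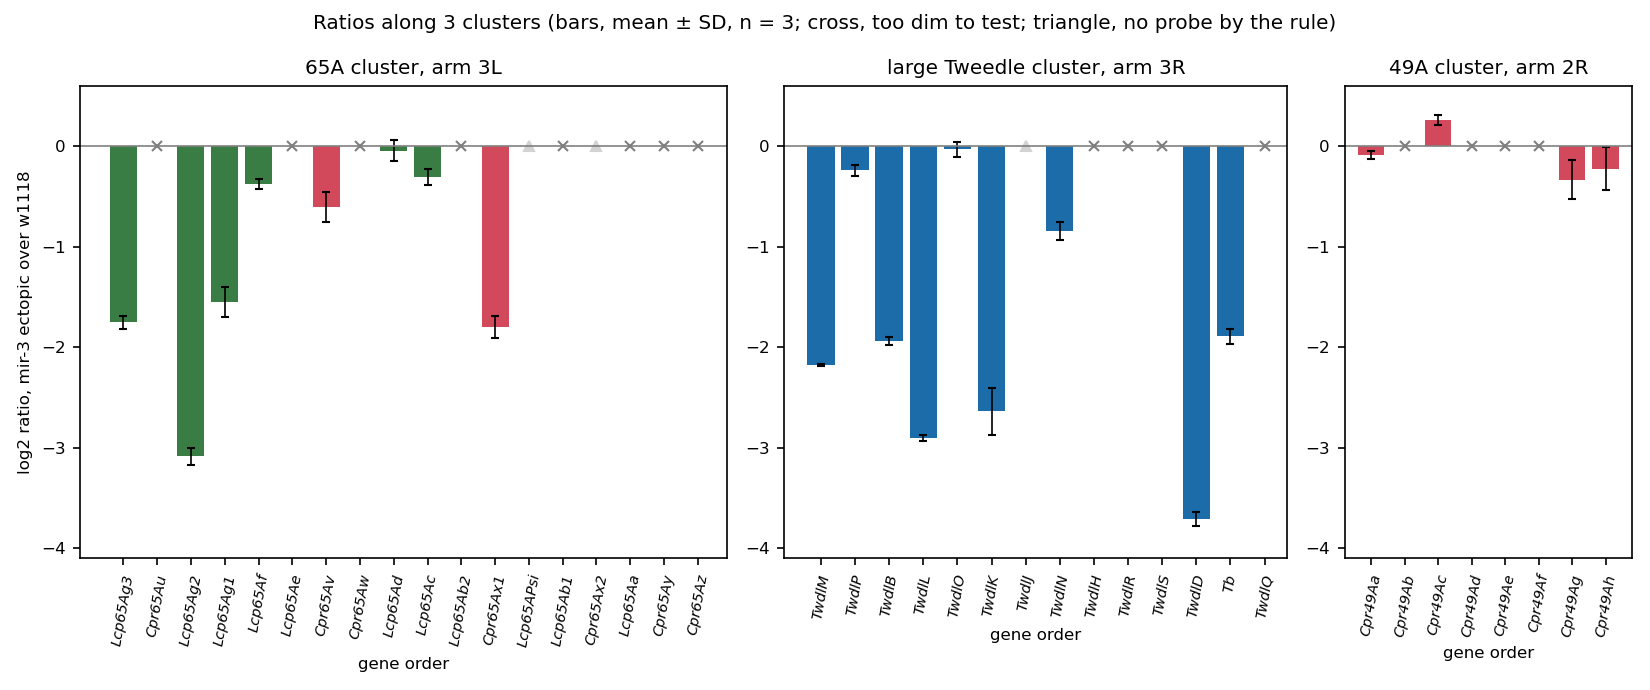
Log2 ratio (y axis, mir-3 ectopic over w1118) along the gene order of the 65A cluster, the largest Tweedle cluster and the 49A cluster, with bars for the mean and error bars for the SD of 3 replicates. Crosses mark members too dim to test and triangles genes with no probe by the rule, bars of genes not above background in mir-3 ectopic embryos show the fitted ratio, and tall bars stand next to short ones, as with *TwdlL* at -2.90 and *TwdlO* at -0.03.

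Genes that lie among or beside the clusters but belong to none of the families gave a local comparison. Of 8 such genes tested within clusters, 3 fell and none rose, with a median of -0.14. They were *TpnC47D* (-0.87), which encodes a troponin C, and CG13297 (-0.49) and CG31077 (-0.30). Of 100 tested genes among the 5 on each side of a cluster, 28 fell and 30 rose, with a median of -0.02. Their shares are near the 24.5% called lower and 24.3% called higher over all genes.

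Other cuticle genes were followed through lists of the same tissue. Of 21 other structural cuticle genes, 10 were tested, and 8 fell and none rose, with a median of -0.55. Of the 8, 3 were among 5 genes detected in both genotypes and 5 were among 5 detected in w1118 embryos alone, classes in which 24.5% and 64.8% of all genes were called lower. The Vajk genes were at the front, with *Vajk4* at -2.58 ± 0.18 and *Vajk2* at -1.02 ± 0.01 (SD, n = 3). *Vajk3*, above background on 1 of 4 arrays in mir-3 ectopic embryos, was at -1.42 ± 0.08 (SD, n = 3). *Vajk1*, above background there on 0 of 4 arrays, was at least 3.09-fold lower (adjusted p 5.54e-07). The list of peritrophin-type genes, whose products bind chitin through another domain, held 14 symbols, of which 8 were found on the array. Of these, 6 were tested, and 4 fell and 1 rose, with a median of -0.43. Falls were seen in 3 of 5 genes detected in both genotypes and in the 1 gene detected in w1118 embryos alone. In those classes 24.5% and 64.8% of all genes were called lower. *Gasp* (-1.44), *obst-A* (-0.57) and *obst-E* (-1.44) fell and *Muc11A* (0.54) rose, *obst-E* being above background on 1 of 4 arrays in mir-3 ectopic embryos.

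Genes that make or modify chitin moved in both directions. All 17 were tested, of which 6 fell and 4 rose, with a median of -0.03. Over all genes tested, 24.5% were called lower and 24.3% were called higher. *Chs2*, a chitin synthase, fell by 0.56, the chitinase genes *Cht7* (-0.27) and *Cht5* (0.30) went opposite ways, and *reb*, needed for chitin deposition, rose by 0.46. The chitin synthase of the epidermis, *kkv*, was at 0.05 and did not pass (adjusted p 0.452). Of 13 tanning and pigmentation genes, 12 were found on the array by symbol and 9 were tested. Of those 9, 1 fell (*Ddc*, the dopa decarboxylase, -0.14) and 1 rose (*stw*, 0.29).

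Regulators of the epidermis and of moulting showed no common direction. Of 18 transcription factors of these tissues, 17 were tested, of which 2 fell and 4 rose, with a median of -0.02. For this list and the next, the shares over all genes tested were 24.5% called lower and 24.3% called higher. *Hr4* (0.54), *ftz-f1* (0.42) and *br* (0.26), which act in the ecdysone response, rose, and *crol* (-0.19) fell. Of 14 genes of ecdysone synthesis and reception, 12 were found on the array by symbol and 10 were tested, of which 4 fell and 2 rose. Among them *Cyp18a1*, which inactivates ecdysone, fell by 0.66 and *sad*, a synthesis enzyme, by 0.22, while *nvd* (0.63), another synthesis gene, and the receptor gene *EcR* (0.32) rose.

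Markers of the sampled cells and of ages outside the window were read beside these results. All 6 epidermal markers and all 7 markers of gastrula and germ band embryos were detected in both genotypes. Of the 6 epidermal markers, which the lists above also hold, *grh* (-0.16, adjusted p 0.0332) and *knk* (-0.31, adjusted p 0.0255) passed as lower, and *vvl*, *kkv*, *verm* and *serp*, between -0.03 and 0.08, did not pass. Of the 7 germ band markers, *tin* (-0.73) and *en* (-0.25) passed as lower. *Lsp1alpha*, *Lsp2* and *Sgs3*, of late embryos and larvae, were above background on 0 of 4 arrays in both genotypes. *Jon25Bi*, the other marker of that group, was above background on 4 arrays in mir-3 ectopic and 3 in w1118 embryos (0.09, limma adjusted p 0.109). In the wider list of 18 late embryonic and larval genes, 5 were tested, with 1 lower (*Jon65Aiii*, -0.27) and 2 higher (*Amy-p*, 0.77, and *Amy-d*, 0.39). *Jon25Bi* and *Lsp1gamma* (-0.02), the latter above background on 4 of 4 arrays in both genotypes, did not pass. Of 22 adult female and egg chamber genes, 21 were found on the array by symbol and 9 were tested. Of those 9, *yl* (-1.17) and *Cp15* (-0.73) were lower and *Yp1* (0.48) and *Yp3* (0.19) were higher. Over all genes tested, the shares called lower and higher were 24.5% and 24.3%. The part that any difference in age or in cell make-up had in the cuticle result was not tested.

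Each slide held both genotypes, since replicate 1 shared a slide with its dye swap and the remaining replicates shared another. On that other slide alone, with replicates 2 and 3, 43 members fell and 3 rose, with a median of -0.69, and with slide as a random block 38 fell and 2 rose. With each array centred on its median in place of loess, 14 members fell and 0 rose, and over all genes 58 were called lower and 24 higher in place of 3632 and 3611, while the members' median was -0.68.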

How the data were processed

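Agilent Feature Extraction 10.1.1.1 quantified the arrays, per the file headers. From it the authors deposited median spot and background intensity, a processed intensity in each channel, and log10 ratios (red over green) that were not used. The authors' deposited value table holds uncentred log2 ratios of w1118 over mir-3 ectopic, equal to log2 ratios of the processed signals within 2.85e-06.

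Here, median signals were corrected with normexp (offset 50) and loess-normalized within arrays in limma 3.58.1 (R 4.3.3, statmod 1.5.0), with control spots at weight 0 and outlier-flagged spots dropped. Probes well above background in at least 1 genotype on at least 3 of 4 arrays were kept (19734 of 32162) and averaged per gene. Replicate 1 was averaged with its dye swap, and 3 replicate ratios were tested by lmFit and eBayes, adjusting p-values (Benjamini-Hochberg) over 14852 genes and unnamed transcripts. The channels of an array share a replicate number, and the ratio keeps that pairing.

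Symbols came from RefSeq's table (Release 6 plus ISO1 MT) and the files name build BDGP5.4, so no coordinates are given. Members and lists were chosen with earlier results of these data known. Named members were those at least 2-fold changed, those higher, the smallest ratio per family and those next to the threshold, and of each list up to 4 genes by p. The alternatives tried changed the background, normalization, filter, probe summary, dye, slide, pairing and replicates.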

Additional observations from a re-analysis of the deposited data

How the results depend on the processing

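All 16 alternatives kept the members' median below 0. With each array centred on its median in place of loess, 82 genes were called over the array, 14 members fell, 0 rose and the median was -0.68, and 25 of the 39 calls were lost. The cause was not tested. With processed signals 41 members fell and 4 rose at a median of -2.28, and the authors' deposited table gave the same 3 values. With no background subtraction the median was -0.97, and with no filter, which adds the 52 dim members, it was -0.078. The stricter filter tested 24 members, of which 15 fell, at a median of -0.32. The median was -0.73 with a dye term, -0.67 with 4 arrays as replicates or with a slide block, -0.60 without the dye swap and -0.69 with the dye-swap array alone, where 4323 genes were called. Without the pairing of channels by replicate, 4437 genes were called and 36 members fell. Leaving out each replicate in turn gave 4727 to 8256 calls over all genes, 37 to 43 members lower, 2 or 3 higher and medians from -0.69 to -0.65, with 4727 calls without replicate 3. Of the 39 falls, 36 were kept in every alternative that tested them other than median centring. The exceptions were Cpr35B, lost with unpaired channels, Cpr49Ag, lost there, with the dye-swap array alone and without replicate 3, and Cpr5C, lost in 8 alternatives. No call of a named member changed direction. TwdlO and Cpr47Eg, neither of which passed, crossed 0 in some alternatives, between -0.064 and 0.016 and between -0.065 and 0.016. For dim members, signal over background limits the size of a fall.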
